A study of Mus musculus with 60 samples.

Results

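The transcripts of 8 smooth muscle contractile genes, Acta2, Actg2, Tagln, Cnn1, Myh11, Lmod1, Smtn and Synpo2, were followed in mouse embryonic fibroblasts (MEFs), normal tissues and tumours that carry the CD74-NRG1 fusion. The 8 genes were taken by symbol, and all 8 were present among the 46517 genes of the MEF count table and the 54838 genes of the tissue count table.

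Smooth muscle cells contract when myosin, activated by phosphorylation of its light chain, pulls on actin filaments anchored at dense bodies and the cell edge. Most genes of this apparatus are switched on by serum response factor (SRF) with its coactivators, the myocardin family, which bind the CArG box, and the programme is raised by transforming growth factor beta. In organs these transcripts mark vessel and airway walls and the muscle coat of hollow organs, whereas in culture fibroblasts that turn into myofibroblasts also make several of them.

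In the mouse line, the fusion sits in the Rosa26 locus behind a stop cassette flanked by FRT sites, and a Flp deleter allele (Rosa26Flp) removes the cassette in the early embryo. MEFs came from 3 embryos each that were CD74-NRG1 negative (Rosa26Flp/Flp; embryos 1, 5 and 8), heterozygous (Rosa26FSF.CD74-NRG1/Flp; embryos 2, 4 and 6) or homozygous (Rosa26FSF.CD74-NRG1/FSF.CD74-NRG1; embryos 3, 7 and 10), each sampled at passage 1 and passage 3, which gave 18 libraries. The tissue libraries came from cryostat sections of 9 Rosa26CD74-NRG1/Flp mice: 7 of lung, 6 of muscle, 6 of spleen, 8 of liver, 2 of brain, 1 of kidney, 7 of sarcoma from 6 mice, 3 of liver tumour and 2 of an intestine tumour of 1 mouse. By the labels, every tissue, normal ones included, came from mice of the transgenic line. No tissue comparison thus has a control labelled as transgene-free, and the labels used here give no age. All libraries were 3′ libraries (QuantSeq), in which reads come from the transcript's end. Levels are CPM, a gene's count divided by the library's total and scaled to a common depth.

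The libraries held 3107529 to 5511781 counts in MEFs and 4837440 to 10089572 counts in tissues. A count of 3 corresponded to 0.544 to 0.965 CPM in MEFs and 0.297 to 0.62 CPM in tissues. Nrg1, the gene whose 3′ part is in the fusion, went against the label in embryo 1, labelled negative (132 CPM at passage 1 and 147 CPM at passage 3), and in embryo 3, labelled homozygous (0.644 and 1.28 CPM). The homozygous genotype as written names no Flp allele, yet embryos 7 and 10 of that label held Nrg1 at 141 and 84.9 CPM at passage 1. The labels do not settle which level that genotype should give. In tissues, mouse M00246 held the lowest Nrg1 level of each of its groups. It stood at 0.675 CPM in liver, 1.3 CPM in muscle, 2.34 CPM in spleen and 5.36 CPM in lung. The next lowest libraries of these tissues stood at 27.6, 26.4, 8.16 and 8.93 CPM. Genotypes of embryos and mice below are therefore the labelled ones. The labels of embryo 8 also disagree on its passages, so its group labels were used. MEFs held the fibroblast collagen gene Col1a1 at 2635 CPM or more in every library, lung held the surfactant gene Sftpc at 5148 CPM or more, and muscle held the creatine kinase gene Ckm at 1224 CPM or more. The sarcoma libraries held the Schwann cell gene Sox10 at 414 to 902 CPM, against at most 8.4 CPM in muscle and 2.12 CPM in lung.

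Short windows of the Acta2, Lmod1 and Smtn promoters are shown because they hold the motifs through which SRF and TEAD factors are known to act. The promoter table of RefSeq (GRCm38.p6) held 5 of the 8 genes. Each window has 30 bases, runs 5′ to 3′ on the gene's strand, and has the motif in capitals. The windows marked CArG lie on chromosome 19, at chr19:34255438-34255467 and chr19:34255388-34255417 on the minus strand, and their motifs begin 84 and 34 bases before the start of Acta2. The windows marked CATTCC, the TEAD motif, lie at chr19:34255502-34255531 (minus strand), chr1:135324671-135324700 (plus strand) and chr11:3539497-3539526 (minus strand), with motifs 146, 130 and 222 bases before the start of the gene.
Acta2 CArG distal: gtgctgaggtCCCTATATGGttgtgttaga
Acta2 CArG proximal: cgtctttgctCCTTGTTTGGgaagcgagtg
Acta2 CATTCC (minus strand of the gene): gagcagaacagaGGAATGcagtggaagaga
Lmod1 CATTCC (minus strand of the gene): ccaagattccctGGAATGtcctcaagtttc
Smtn CATTCC (plus strand of the gene): cggtttgtggcaCATTCCggactttggctt
Both strands were searched, and none of the 5 promoters held an exact CArG box, which was present in 1.64% of the 32544 promoters of the same length. With up to 1 of the 6 inner letters G or C, the box was present in 1 of 5 promoters, that of Acta2, against 9.96% of all promoters. CATTCC was present in 3 of 5 promoters, against 14.6% of all promoters. The motifs do not overlap one another in these windows, and a match in letters is a description and does not show binding.

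In MEFs, Actg2 and Myh11 fell from passage 1 to passage 3, by 1.81-fold and 1.99-fold, while the other 6 genes did not pass the test. The test was edgeR's quasi-likelihood test on all 12051 genes with enough counts, averaged over the 3 genotypes, with Benjamini-Hochberg adjustment and a threshold of 0.05. The 2 of 8 that fell are read against 1.01% of all genes that fell, 1.81% that rose and 2.82% past the threshold in either direction. The median log2 change of the 8 genes was -0.30, against 0.0 over all genes tested. MEFs are bulk samples, as are the tissues, so fewer cells of a type and less RNA per cell cannot be told apart, and p-values measure the spread between these samples.

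Actg2 encodes the gamma actin of visceral smooth muscle. At passage 1 it stood at 148, 201, 179, 120, 111, 135, 127, 108 and 258 CPM in embryos 1, 2, 3, 4, 5, 6, 7, 8 and 10, and at passage 3 at 82.0, 89.4, 78.6, 75.3, 94.2, 84.0, 112, 85.1 and 60.7 CPM in the same order. It was lower at passage 3 in all 9 embryos, and the 2 passages overlapped only through embryo 7 at passage 3 (112 CPM), which lay above embryos 5 and 8 at passage 1. On the scale that corrects for composition (trimmed mean of M values, TMM), the means were 155 ± 52.4 CPM and 84.6 ± 14.2 CPM (SD, n = 9 each). The log2 change was -0.85 (SE 0.15, edgeR adjusted p = 0.011).

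Myh11 encodes the smooth muscle myosin heavy chain, the most restricted of the markers. Its passage 1 levels were 18.3, 33.5, 21.2, 10.9, 11.8, 18.1, 15.7, 15.3 and 28.2 CPM in embryos 1, 2, 3, 4, 5, 6, 7, 8 and 10, and its passage 3 levels 11, 8.66, 7.66, 10.5, 6.2, 10.2, 13.7, 14.9 and 3.74 CPM. Every embryo was lower at passage 3, from embryo 10 (log2 change -2.91) to embryo 8 (-0.04), but the ranges of the passages overlapped between 10.9 and 14.9 CPM. Embryos 4 (-0.06, 43 against 41 counts) and 8 hardly differed between passages. The share of all genes lower at passage 3 in every embryo is not reported here, for Actg2 and Myh11 alike. The scaled means were 19.4 ± 7.84 CPM and 9.62 ± 3.48 CPM (SD, n = 9 each), with a log2 change of -0.99 (SE 0.25, edgeR adjusted p = 0.045). With the embryo as a replicate block, the Myh11 change was -0.96 and missed the threshold (adjusted p = 0.059).

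The passage 1 libraries of embryos 2, 3 and 10 also differed from the others in marker genes of other cell types. The summed level of 8 macrophage genes was 103, 58.9 and 66.0 CPM there, against 1172 to 2037 CPM in the other 6 embryos at passage 1 and 724 to 1696 CPM in all 9 at passage 3. Skeletal muscle genes, 10 in the list, summed to 28.4, 54.1 and 218 CPM in embryos 2, 3 and 10, against 7.76 to 18.3 CPM in the others, with Ckm at 0 in all 18 libraries. Cardiac genes, 8 in the list, summed to 39.4, 32.8 and 136 CPM, against 11.8 to 16.7 CPM. These 3 libraries are grouped by their low macrophage sum, so the gap in that list follows from the grouping. At passage 3 the skeletal sum ran from 13.6 to 38.4 CPM over all 9 embryos. How many of all genes set these libraries apart was not counted. The skeletal and cardiac lists set the passage 1 libraries of embryos 2, 3 and 10 apart without overlap. Fibroblast genes, 8 in the list, did so too, at 5076, 4623 and 4138 CPM against 6866 to 7690 CPM. Pericyte genes, 8 in the list, overlapped, at 310, 656 and 556 CPM against 244 to 436 CPM. Without embryos 2, 3 and 10 the log2 change of Actg2 was -0.44 (adjusted p = 0.033) and that of Myh11 -0.38 (adjusted p = 0.43). The Actg2 call was lost without embryo 1 (-0.78, adjusted p = 0.063), without embryo 3 (-0.85, adjusted p = 0.055) and without embryo 8 (-0.88, adjusted p = 0.062). The Myh11 call was lost when embryo 1, 2, 3, 4, 5, 6, 8 or 10 was left out, with adjusted p from 0.054 to 0.15, and was kept without embryo 7 (-1.24, adjusted p = 0.014).

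The other filament genes did not pass the passage test. Acta2, the alpha actin of vascular smooth muscle and of myofibroblasts, stood at 3408 CPM (lowest), 3749 CPM (median) and 4920 CPM (highest) at passage 1 and at 2761, 3697 and 3983 CPM at passage 3. Its passages overlapped over most of their range, with a log2 difference of -0.14 (SE 0.08, adjusted p = 0.4). Embryo 10 held both the highest Acta2 level at passage 1 and the lowest at passage 3.

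Tagln encodes transgelin (SM22), an actin-bundling protein. It stood at 482, 541 and 827 CPM (lowest, median, highest) at passage 1 and 446, 599 and 680 CPM at passage 3, and was lower at passage 3 in only 3 of 9 embryos. Cnn1 encodes calponin, which binds actin and slows the myosin cycle, and stood at 231, 306 and 419 CPM against 218, 276 and 288 CPM. It was lower in 8 of 9 embryos, with a log2 difference of -0.23 (SE 0.09, adjusted p = 0.21). Tagln counts were fractional in all 18 MEF libraries, with a largest fractional part of 0.07. The gene overlaps Pcsk7 on the opposite strand, which stood at no more than 7.52 CPM in MEFs. The part of this overlap in the Tagln level was not tested.

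Lmod1 encodes leiomodin, which nucleates actin filaments, and stood in a narrow range, from 177 to 213 CPM at passage 1 and from 149 to 226 CPM at passage 3. Its log2 difference was -0.06 (SE 0.07, adjusted p = 0.71). Smtn encodes smoothelin, an actin-binding protein of contractile cells, and stood at 26.2, 44.5 and 61.5 CPM (lowest, median, highest) at passage 1 and 27.1, 34.4 and 42.3 CPM at passage 3. Its difference of -0.38 (SE 0.14) had an adjusted p of 0.16. Synpo2 encodes myopodin, which binds and bundles actin at Z-discs and dense bodies, and stood at 2.04, 3.15 and 8.37 CPM against 1.34, 2.51 and 3.75 CPM. Its difference of -0.61 (SE 0.27, adjusted p = 0.25) lay on few counts.

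**Figure D1:**
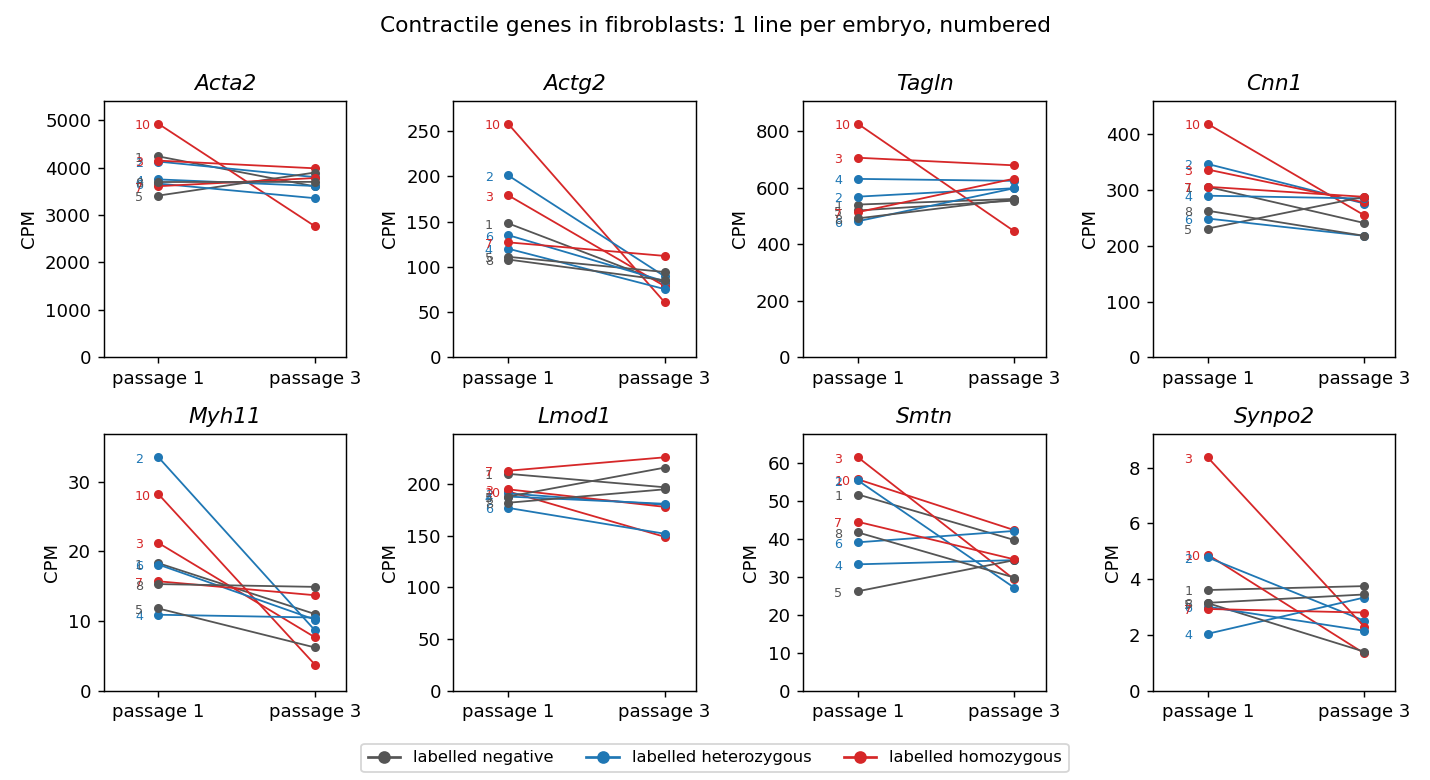
Level of each of the 8 genes (CPM, linear axis from 0) in the 9 MEF embryos at passage 1 and passage 3; each point is a library, lines join the 2 passages of an embryo, and colour marks the labelled genotype. Actg2 and Myh11 lines fall in all 9 embryos, though the Myh11 lines of embryos 4 and 8 are nearly level. The lowest passage 3 point of both genes belongs to embryo 10 (60.7 and 3.74 CPM).

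Of the other pathway genes, 1 passed the passage test. None of 18 tested genes among 20 further contraction genes passed, the nearest being Ppp1r14a, an inhibitor of myosin phosphatase, with a log2 difference of -0.85 (SE 0.23, adjusted p = 0.057). None of 16 tested regulators of the programme passed (nearest Tgfbr3, 1.2, SE 0.36, adjusted p = 0.078), and none of 12 targets of SRF or YAP (nearest Thbs1, 0.32, SE 0.10, adjusted p = 0.083). Of 7 tested paralogues of the 8 genes, 1 rose: Synpo, the podocyte and neuronal relative of Synpo2, by 0.55 (SE 0.11, adjusted p = 0.019). The 8 contractile genes and these lists were tested in 1 fit with 2113 genes at an unadjusted p under 0.05.

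Genotype left no called difference in any of the 8 genes. Homozygous, heterozygous and negative MEFs were compared in pairs at each passage with 3 embryos a group, and the homozygous and negative passage changes were compared with each other. In all 7 comparisons 0 of 8 genes passed, and so did 0% of the 12051 genes tested, with 316 to 1315 genes at an unadjusted p under 0.05. DESeq2 called 9 of all genes between homozygous and negative MEFs at passage 1, and 0 or 1 in the other pairwise comparisons. The genotype labels of embryos 1 and 3 are those that Nrg1 went against.

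At passage 1 all 8 genes had a higher fitted level in homozygous than in negative MEFs, with a median log2 difference of 0.43 against 0.0 over all genes. The values were 0.18 (SE 0.14) for Acta2, 0.64 (SE 0.26) for Actg2, 0.42 (SE 0.16) for Tagln, 0.42 (SE 0.16) for Cnn1, 0.54 (SE 0.42) for Myh11, 0.06 (SE 0.12) for Lmod1, 0.45 (SE 0.24) for Smtn and 0.70 (SE 0.44) for Synpo2. The lowest adjusted p among them was 0.39, for Cnn1. Embryos 3 and 10, labelled homozygous, are 2 of the 3 passage 1 libraries with few macrophage transcripts, and the part of that difference was not tested. Without embryo 7, the third homozygous embryo, Actg2 (0.87, edgeR adjusted p = 0.026) and Tagln (0.60, adjusted p = 0.023) passed. They were among 891 genes in all that passed, where the reported fit tested 12051. That left embryos 3 and 10 as the homozygous group, and embryo 3 held Nrg1 at 0.644 CPM at passage 1. Genotype and the macrophage difference were not tested apart there.

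At passage 3 the median homozygous minus negative difference of the 8 genes was -0.08, within a range from -0.40 for Synpo2 to 0.13 for Cnn1. The heterozygous minus negative medians were 0.13 at passage 1 and -0.07 at passage 3, and the homozygous minus heterozygous medians 0.26 and -0.01. The passage change of homozygous embryos minus that of negative embryos had a median of -0.38, with Actg2 at -0.70 (SE 0.37), Myh11 at -0.89 and Synpo2 at -1.10, all at an adjusted p of 0.99. Comparisons that use the same embryos share them and are not independent.

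Among tissues, in plain CPM, 6 of the 8 genes had their highest median in lung, Smtn had it in sarcoma and Synpo2 in muscle. The share of all genes highest in lung is not reported here. After TMM scaling, mean levels in lung and muscle were 101 and 93.3 CPM for Acta2, 26.4 and 24.3 CPM for Tagln, and 12.7 and 10.2 CPM for Lmod1. They were 66.4 and 48.7 CPM for Myh11, 16.7 and 3.58 CPM for Cnn1, and 4.2 and 1.79 CPM for Actg2. Acta2 stood at 80.1, 125 and 239 CPM (lowest, median, highest) in lung, 26.4, 71.5 and 109 CPM in muscle, 18.8, 48.3 and 97.9 CPM in spleen, and 50.4 and 69.9 CPM in the 2 brains. It was lower in sarcoma (14.5, 24.0 and 45.7 CPM over 6 mice), liver tumour (12.7, 16.2 and 17 CPM), the intestine tumour (12.3 and 7.53 CPM) and liver (0.51, 2.66 and 12.2 CPM), and was 29.9 CPM in the kidney. In plain CPM lung and sarcoma did not overlap, and neither did liver tumour and liver, whereas neighbours in this order such as lung and muscle, muscle and spleen, or spleen and sarcoma did overlap.

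Myh11 followed nearly the same order. Its lowest, median and highest levels were 49.7, 82.5 and 165 CPM in lung, 13.8, 34.5 and 54.5 CPM in muscle, 9.58, 23.5 and 49.7 CPM in spleen, and 5.36, 9.47 and 14.6 CPM in sarcoma. The brains stood at 29.4 and 30.7 CPM, the kidney at 9.37 CPM, liver tumours at 0.962, 2.78 and 4.43 CPM, and liver at 0.621, 1.3 and 8.33 CPM. All lungs lay above all sarcomas for Myh11, and lung and muscle overlapped between 49.7 and 54.5 CPM.

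Cnn1 and Actg2 were the genes that most set lung apart from the other tissues. Cnn1 stood at 10.8, 18 and 49.1 CPM (lowest, median, highest) in lung, above every other tissue library, of which the highest was a muscle at 5.05 CPM. Actg2 stood at 2.57, 4.55 and 12.5 CPM in lung and at no more than 3.1 CPM elsewhere, and was listed at 0 in the kidney, in 2 of 3 liver tumours and in the lowest sarcoma and liver. In tissues other than lung most Actg2 levels rest on a few counts.

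Tagln and Lmod1 were also highest in lung, with wider overlap. Tagln stood at 5.3, 34.7 and 69.6 CPM (lowest, median, highest) in lung, 10.9, 24.4 and 41.1 CPM in spleen, 4.3, 18.3 and 27.7 CPM in muscle, and 4.37, 8.79 and 14.3 CPM in sarcoma. The lung of mouse M00238 (5.3 CPM) lay within the sarcoma range. In tissues Tagln counts were fractional in 40 of 42 libraries, with a largest fractional part of 0.49. Pcsk7 on the opposite strand reached 31.2 CPM, which leaves Tagln levels uncertain here. Lmod1 stood at 7.31, 17.8 and 26.7 CPM in lung, 4.29, 6.18 and 11.9 CPM in muscle, 4.78, 6.16 and 12.1 CPM in sarcoma, and 1.54, 4.05 and 12.3 CPM in spleen, so that muscle, sarcoma and spleen could not be ordered.

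**Figure D2:**
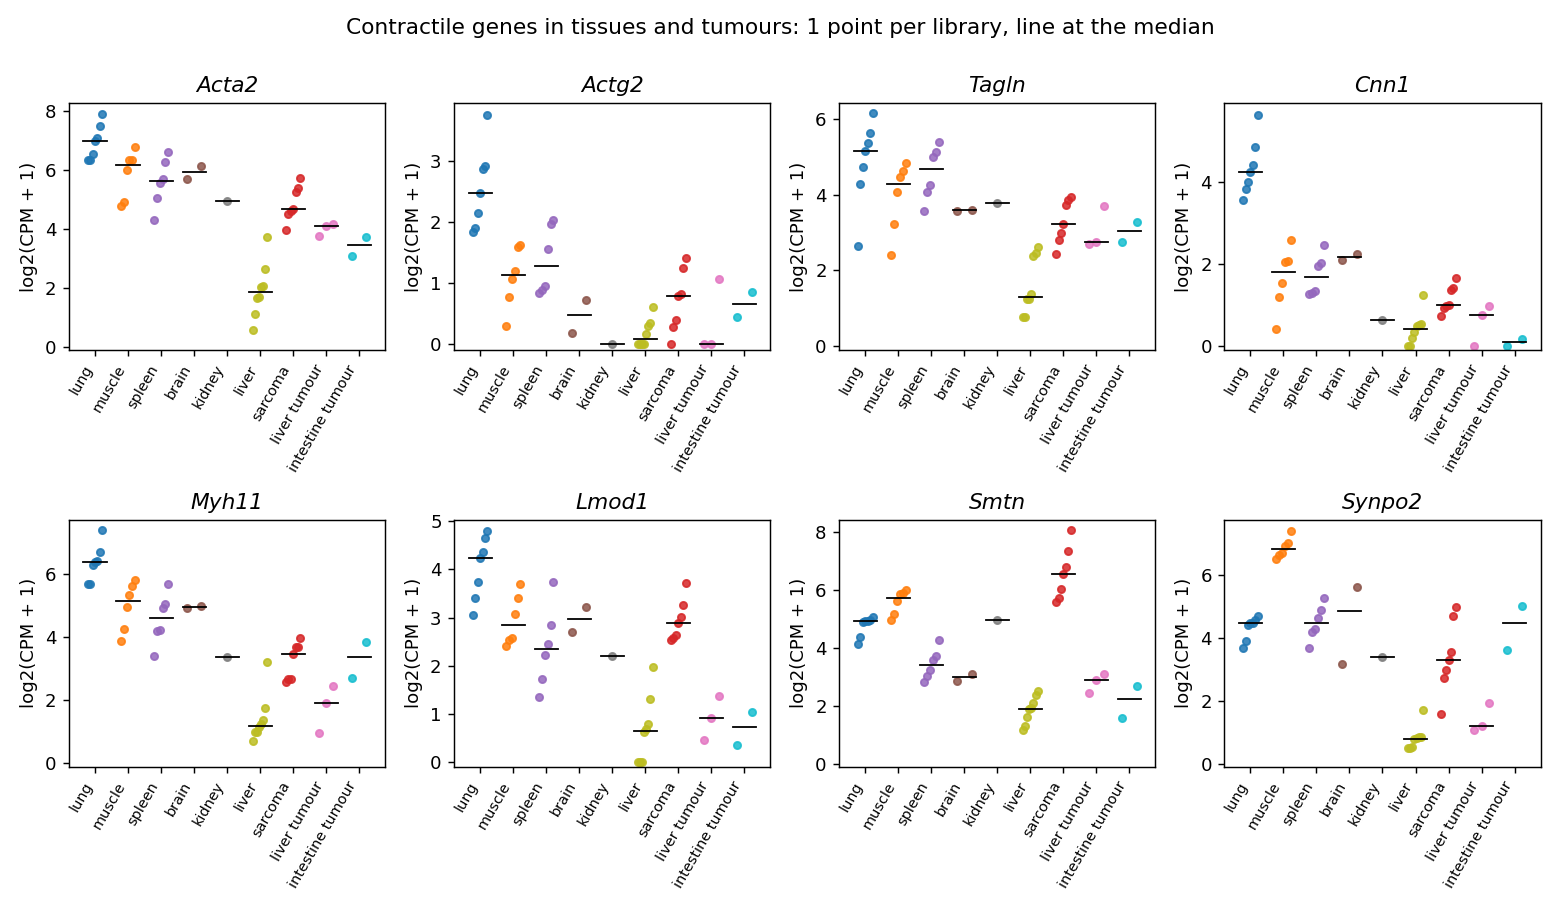
Level of each of the 8 genes as log2(CPM + 1) in the tissue and tumour libraries; each point is a library, and the line is the median. On this level, which is not TMM-scaled, the highest median is that of lung for 6 of the 8 genes, of sarcoma for Smtn (77.5 CPM) and of muscle for Synpo2 (113 CPM).

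Sarcoma was compared with lung and with muscle, 2 normal tissues of the same line. Against lung, 6 of the 8 genes fell, Smtn rose and Synpo2 did not pass, in an edgeR quasi-likelihood fit of 15556 genes in which 23.8% of all genes fell and 18.1% rose. The median log2 difference of the 8 genes was -2.21, against -0.01 over all genes. The sarcoma libraries from 1 mouse (M00245) were summed, which left 6 sarcoma mice against 7 lungs.

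Cnn1 had the largest fall among the 8 genes against lung, 18.8-fold, from a scaled mean of 23.4 ± 14.6 CPM (SD, n = 7) in lung to 1.25 ± 0.559 CPM (SD, n = 6) in sarcoma. Its log2 difference was -4.23 (SE 0.43, edgeR adjusted p = 1e-06). Myh11 fell 10.1-fold (log2 -3.34, SE 0.39, adjusted p = 4.5e-06), from 93.1 ± 45.1 CPM to 9.25 ± 4.58 CPM. Actg2 fell 8.88-fold (-3.15, SE 0.56, adjusted p = 0.00028), and Acta2 5.2-fold (-2.38, SE 0.34, adjusted p = 4e-05). The plain CPM of these 4 genes did not overlap between the sarcoma mice and the lungs. The share of all genes without such overlap was not counted, so the 4 genes have no background to be read against.

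Tagln (log2 -2.04, SE 0.50, adjusted p = 0.0039) and Lmod1 (-1.38, SE 0.34, adjusted p = 0.0041) also fell, with overlap between single libraries. Smtn went the other way, 3.65-fold higher in sarcoma (log2 1.87, SE 0.37, adjusted p = 0.00069), at 103 ± 81.2 CPM against 28.2 ± 7.08 CPM (SD), and its groups did not overlap. Synpo2 differed by -0.77 (SE 0.36, adjusted p = 0.099). Without the sarcoma of mouse M00238, which had the highest Synpo2 level, Synpo2 passed (-1.23, adjusted p = 0.0032).

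The form of the sample names splits the mice, since libraries of mice M00235 to M00238 have a 2-digit suffix and those of M00245 to M00249 a 1-digit suffix. Within the 2-digit names (4 sarcomas, 2 lungs), 3 of the 8 genes fell against lung: Acta2 (log2 -1.78, adjusted p = 0.025), Cnn1 (-3.94, adjusted p = 0.003) and Myh11 (-2.56, adjusted p = 0.0088). There Actg2 (-2.44, adjusted p = 0.14), Lmod1 (-0.93, adjusted p = 0.24), Tagln (-0.33, adjusted p = 0.78) and Smtn (2.58, adjusted p = 0.058) did not pass. Within the 1-digit names (2 sarcoma mice, 5 lungs) all 8 passed, with Synpo2 at -1.22 (adjusted p = 0.02) and Smtn at 1.49 (adjusted p = 0.0015). The share of all genes past the threshold within the 1-digit names is not reported here, so that count has no background. With the mouse as a replicate block, Tagln (-1.97, adjusted p = 0.053) and Lmod1 (-1.19, adjusted p = 0.094) lost the call against lung. With name form as a covariate, Tagln was at -1.54 (adjusted p = 0.063).

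Markers of other cell types differed between sarcoma and lung as well. The 8 fibroblast genes summed to 7717 to 31811 CPM in sarcoma and 707 to 1310 CPM in lung, the 8 pericyte genes to 422 to 1493 CPM against 138 to 415 CPM, and the 8 endothelial genes to 79 to 192 CPM against 1156 to 1793 CPM. Schwann cell genes, 6 in the list, summed to 2222 to 5710 CPM in sarcoma and 25.7 to 49.5 CPM in lung. The part of these cell types in the contractile gene levels was not tested. Cardiac genes, 8 in the list, summed to 142, 481 and 876 CPM in the lungs of mice M00248, M00247 and M00249 and to 22.9 to 32.6 CPM in the others, while the lung with the highest Acta2, Actg2, Tagln, Cnn1 and Myh11 was that of mouse M00246.

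Of 19 tested further contraction genes, 3 rose and 7 fell in sarcoma against lung. These and the list counts that follow stand beside 18.1% of all genes that rose and 23.8% that fell. No list was tested as a set. Ppp1r14a (log2 -5.59, SE 0.35), the myosin light chain kinase gene Mylk (-2.75, SE 0.23) and Pgm5, a component of adherens plaques (-2.87, SE 0.43), were among those that fell. Of 16 tested regulators 5 fell and 0 rose, among them the transcription factor gene Foxf1 (-4.24, SE 0.53), the TGF-beta inhibitor gene Smad7 (-2.94, SE 0.34), the receptor gene Notch3 (-0.89, SE 0.18) and the SRF coactivator gene Mrtfb (-0.86, SE 0.23). Of 12 SRF or YAP targets 6 fell and 1 rose, with Ccn1 at -3.39 (SE 0.49), Ankrd1 at -3.15 (SE 0.70), Ccn2 at -1.80 (SE 0.32) and Amotl2 at -1.66 (SE 0.19). Of 12 tested paralogues 6 fell and 2 rose, and the broadly expressed calponin gene Cnn2 fell by 2.14 (SE 0.19). The list medians were -0.41, -0.36, -0.66 and -0.82.

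Against muscle, 6 of the 7 tested genes fell in sarcoma and Smtn did not pass, in a fit of 14697 genes in which 31.4% fell and 33.6% rose. Actg2 was too low to be tested. The median log2 difference of the 7 genes was -1.91, against 0.06 over all genes. This comparison shares its sarcoma libraries with the one against lung.

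Synpo2, a Z-disc gene in skeletal muscle, differed most. It stood at 89.9, 113 and 170 CPM (lowest, median, highest) in muscle and at 5.57 to 30.8 CPM in the 6 sarcoma mice, with no overlap. Its scaled means were 170 ± 53.3 CPM in muscle and 9.13 ± 6.6 CPM in sarcoma (SD, n = 6 each), an 18.6-fold fall (log2 -4.22, SE 0.42, edgeR adjusted p = 1.3e-06).

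Myh11 fell 7.01-fold against muscle (log2 -2.81, SE 0.43, adjusted p = 6e-05) and Acta2 4.51-fold (-2.17, SE 0.40, adjusted p = 0.00029). Cnn1 (-1.91, SE 0.53, adjusted p = 0.0061), Tagln (-1.83, SE 0.47, adjusted p = 0.0038) and Lmod1 (-0.97, SE 0.33, adjusted p = 0.018) fell as well. Smtn differed by 0.18 (SE 0.40, adjusted p = 0.71), at 78 ± 61.6 CPM against 68.8 ± 22.4 CPM (SD, n = 6 each) after scaling.

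The size of the muscle differences depended on the scaling. The 20 most abundant genes took 35.1% to 50.2% of the counts in muscle, 21.0% to 45.3% in sarcoma and 15.8% to 33.6% in lung, and mitochondrial genes took 21.1% to 34.8% in muscle against 5.56% to 13.4% in sarcoma. With the library total alone, the median of all genes tested was 1.03 and not 0.06, and 9271 genes were higher and 2019 lower, against 4931 higher and 4609 lower after TMM scaling. Without that scaling Lmod1 was at 0.01 (adjusted p = 0.98), Tagln at -0.88 (adjusted p = 0.062) and Cnn1 at -0.93 (adjusted p = 0.1), and Smtn rose by 1.18 (adjusted p = 0.013). Lmod1, Tagln and Cnn1 stood below the median of all genes under both scalings.

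The muscle comparison also differed by name form. The muscles of mice M00237 and M00238 were the lowest for most of the 8 genes. Within the 2-digit names (4 sarcomas, 2 muscles), Synpo2 (log2 -3.54, adjusted p = 0.0037) and Myh11 (-1.29, adjusted p = 0.045) fell, and Acta2 (-0.90, adjusted p = 0.11), Tagln (-0.14, adjusted p = 0.87), Cnn1 (-0.01, adjusted p = 1) and Lmod1 (0.01, adjusted p = 0.99) did not pass. Within the 1-digit names (2 sarcoma mice, 4 muscles), 7 of 8 tested genes fell, with Acta2 at -2.38 (adjusted p = 0.00034), Myh11 at -3.88 (adjusted p = 1.4e-05) and Smtn, which did not pass, at -0.32 (adjusted p = 0.33). For neither name form is the share of all genes past the threshold against muscle reported here, so these counts have no background. With name form as a covariate, 3 of 7 genes passed, and Cnn1 (-1.43, adjusted p = 0.064), Lmod1 (-0.88, adjusted p = 0.07) and Tagln (-1.36, adjusted p = 0.051) did not. With the mouse as a replicate block, Cnn1 (-1.28, adjusted p = 0.13) and Lmod1 (-0.83, adjusted p = 0.19) lost the call.

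Of 20 further contraction genes, 10 fell and 5 rose in sarcoma against muscle. In this fit 31.4% of all genes fell and 33.6% rose, shares beside which all list counts here stand. No list was tested as a set. Pgm5 (log2 -4.90, SE 0.38), the filament gene Nexn (-4.01, SE 0.34) and the tropomyosin gene Tpm1 (-4.33, SE 0.43) fell, whereas the caldesmon gene Cald1 rose (2.51, SE 0.23). Of 16 tested regulators 4 rose, among them the TGF-beta receptor gene Tgfbr2 (2.11, SE 0.21) and the ligand gene Tgfb2 (0.90, SE 0.16), and 5 fell, among them Klf5 (-2.72, SE 0.22) and Klf4 (-2.26, SE 0.36), which encode transcription factors that act on smooth muscle genes. Of 12 SRF or YAP targets 5 rose, including the filamin gene Flna (1.72, SE 0.22) and Tgfb1i1 (1.75, SE 0.26), and 2 fell, including Fhl2 (-1.56, SE 0.28). Of 14 tested paralogues 9 fell, led by the cardiac actin gene Actc1 (-8.42, SE 0.56), and 4 rose, including Cnn3 (2.22, SE 0.17). The list medians were -0.71, -0.11, 0.06 and -2.87.

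Lung and muscle, both normal tissues, differed in 4 of the 8 genes in a fit of 15155 genes in which 30.3% were higher and 27.6% lower in lung. Cnn1 (log2 2.24, SE 0.50, adjusted p = 0.0011) was 4.73-fold and Actg2 (1.25, SE 0.51, adjusted p = 0.046) 2.38-fold higher in lung. Synpo2 (-3.53, SE 0.23, adjusted p = 4.5e-09) was 11.5-fold and Smtn (-1.76, SE 0.24, adjusted p = 1.2e-05) 3.39-fold lower. Acta2 (0.12, SE 0.37), Tagln (0.12, SE 0.50), Myh11 (0.45, SE 0.36) and Lmod1 (0.33, SE 0.35) did not pass, with adjusted p from 0.31 to 0.85.

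With the library total alone the median of all genes was 0.94 in lung against muscle, with 9119 genes higher and 1987 lower against 4590 and 4179 after TMM scaling, and Acta2 (1.04, adjusted p = 0.014), Myh11 (1.37, adjusted p = 0.0021) and Lmod1 (1.23, adjusted p = 0.004) were then higher. With the mouse as a replicate block Myh11 passed (0.64, adjusted p = 0.035). Within the 2-digit names Cnn1 (3.91, adjusted p = 0.03), Smtn (-1.59, adjusted p = 0.04) and Synpo2 (-3.06, adjusted p = 0.013) passed, and within the 1-digit names Cnn1 (1.81, adjusted p = 0.0042), Smtn (-1.86, adjusted p = 2.8e-08) and Synpo2 (-3.72, adjusted p = 2.6e-08) did. Actg2 missed the threshold within the 2-digit names (1.94, adjusted p = 0.15) and the 1-digit names (1.04, adjusted p = 0.063). It also missed it when the lung of replicate 3, 4 or 7, or the muscle of replicate 1, 2, 4 or 5, was left out, with adjusted p from 0.05 to 0.1.

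Of the further contraction genes 8 were higher and 9 lower in lung than in muscle among 20, including Tpm2 (log2 -6.77, SE 0.35) and Hspb6 (-6.51, SE 0.38), which skeletal muscle also expresses. Over all genes 30.3% were higher and 27.6% lower in lung, and no list was tested as a set. Among 16 regulators 7 were higher, including Foxf1 (5.11, SE 0.48) and Smad7 (1.89, SE 0.18), and 3 lower, including Klf5 (-2.67, SE 0.19). Among 12 SRF or YAP targets 8 were higher, including Thbs1 (2.64, SE 0.34), and 1 was lower, Fhl2 (-3.78, SE 0.47). Of 14 paralogues 5 were higher and 8 lower, the skeletal actin gene Acta1 at -10.28 (SE 0.48) and Smtnl1 at -8.49 (SE 0.28). The list medians were 0.02, 0.29, 1.32 and -1.48.

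Smtn and Synpo2 departed from the other 6 genes across tissues. The correlation of each gene with the mean of the other 7, on log2(CPM + 1) over the 42 tissue libraries, was 0.95 for Acta2, 0.94 for Myh11, 0.9 for Lmod1, 0.84 for Tagln, 0.8 for Cnn1 and 0.77 for Actg2, but 0.69 for Synpo2 and 0.55 for Smtn. These are descriptions over libraries that share mice and tissues. In MEFs, over 18 libraries, the same values ran from 0.88 for Actg2 and 0.85 for Acta2 to 0.52 for Tagln and 0.42 for Lmod1.

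Smtn stood at 266, 51.9, 91.2, 46.4 and 63.9 CPM in the sarcomas of mice M00235, M00236, M00237, M00238 and M00248, and at 158 and 110 CPM in the pair of sarcoma libraries of mouse M00245. It stood at 30.2, 51.9 and 63.1 CPM (lowest, median, highest) in muscle and 16.5, 29.3 and 32.6 CPM in lung. All sarcomas lay above all lungs, whereas sarcoma and muscle overlapped. The sarcoma with the highest Smtn, that of mouse M00235, had the highest sum among sarcomas for several marker lists. These were the 8 pericyte genes (1493 CPM), Schwann cell genes (5710 CPM), endothelial genes (192 CPM) and enteric neuron and pacemaker genes (752 CPM). Its fibroblast sum, 14296 CPM, was not the highest (31811 CPM, mouse M00238). The part of these cell types in the Smtn level was not tested.

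Synpo2 in sarcoma stood at 8.75, 10.8, 5.57, 30.8 and 6.95 CPM in mice M00235, M00236, M00237, M00238 and M00248, and at 25.2 and 1.99 CPM in the pair of libraries of mouse M00245. The highest values lay in the libraries with the most skeletal muscle transcripts. The 10 skeletal genes summed to 4415 CPM in the sarcoma of M00238, to 1844 and 26.1 CPM in those of M00245, and to 64.9 to 865 CPM in the other 4, against 16776 to 31445 CPM in muscle. The part of skeletal muscle in the sarcoma level was not tested. In lung, where skeletal genes summed to 24.8 to 83.9 CPM, Synpo2 stood at 11.8, 21.1 and 25.1 CPM.

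**Figure D3:**
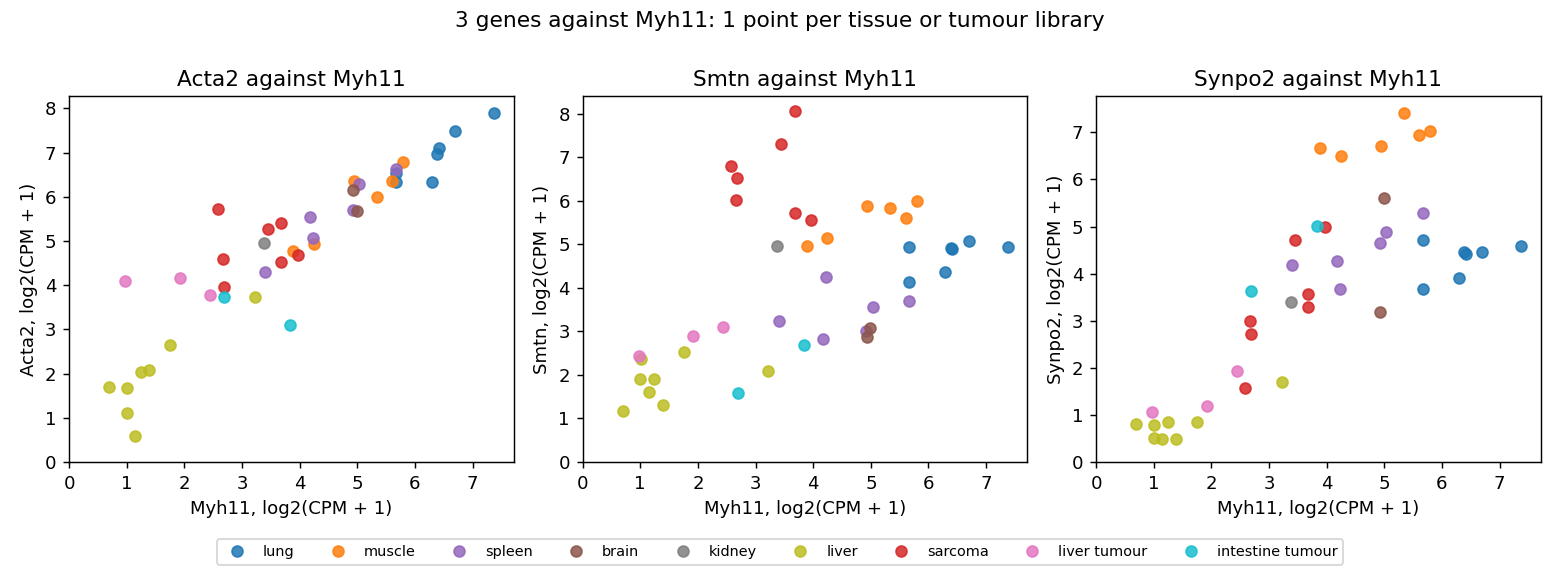
Levels of Acta2, Smtn and Synpo2 against the level of Myh11, all as log2(CPM + 1), in the 42 tissue and tumour libraries, coloured by tissue. Muscle libraries lie above the rest for Synpo2 (89.9 to 170 CPM), and sarcoma libraries above lungs for Smtn, whereas Acta2 runs along Myh11.

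In liver, none of the 6 tested genes passed between 3 liver tumours and 8 livers, in an edgeR fit of 13256 genes in which 10.6% passed, 6.98% being higher in tumour. The libraries counted as liver tumour include 1, of mouse M00249, that the labels list among tumours although its title does not call it one. Acta2 stood at 12.7, 16.2 and 17 CPM in the tumours and at 0.51, 2.66 and 12.2 CPM (lowest, median, highest) in liver. The plain CPM did not overlap, but after TMM scaling the lowest tumour (11 CPM) lay below the highest liver (11.5 CPM). The log2 difference was 1.90 (SE 0.59, adjusted p = 0.056). It passed with DESeq2 (1.87, adjusted p = 0.029), in 1 fit of 6 tissues and tumours (1.81, adjusted p = 0.014), with the library total alone (2.03, adjusted p = 0.044) and without the liver of replicate 2 (2.42, adjusted p = 0.0089). Within the name forms it was 1.95 and 1.84, and the only liver tumour with a 2-digit name was that of mouse M00236. With the mouse as a replicate block it was 1.5 (edgeR adjusted p = 0.82). Only mice M00236 and M00248 gave both a liver and a liver tumour, so that fit rested on them.

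Some markers of other cell types were also higher in liver tumour, as were 6.98% of all genes tested. Of 7 tested fibroblast genes 3 rose, among them the collagen genes Col1a1 (log2 2.51, SE 0.49) and Col3a1 (2.21, SE 0.37), of 6 tested pericyte genes 2 rose, Kcnj8 (2.92, SE 0.37) and Mcam (2.16, SE 0.47), and of 7 tested endothelial genes 1 rose, Emcn (1.86, SE 0.29). The 8 fibroblast genes summed to 368 to 838 CPM in tumour and to at most 488 CPM in liver, the 8 pericyte genes to 94.6 to 257 CPM against 41.3 to 112 CPM, and the 8 endothelial genes to 130 to 208 CPM against 106 to 164 CPM. Higd1b, a pericyte gene, was at 0 in 7 of 8 livers. Their part in the Acta2 level was not tested.

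Tagln (log2 1.53, SE 0.56, adjusted p = 0.1), Smtn (0.96, SE 0.37, adjusted p = 0.13) and Synpo2 (0.87, SE 0.55, adjusted p = 0.36) had positive differences that did not pass, and Myh11 (0.14, adjusted p = 0.93) and Lmod1 (0.10, adjusted p = 0.96) lay near 0. Cnn1 and Actg2 were too low to be tested. The median of the 6 genes was 0.91, against 0.09 over all genes, with 3330 genes at an unadjusted p under 0.05. In the other lists all called genes were higher in tumour: 1 of 15 contraction genes (Tpm1, 1.55, SE 0.26), 3 of 14 regulators (Tgfb2 3.47, SE 0.64; Klf4 2.66, SE 0.56; Tgfbr2 1.42, SE 0.32), 4 of 11 SRF or YAP targets, among them the cytoplasmic actin gene Actg1 (1.13, SE 0.30), and 2 of 8 paralogues, Tagln2 (2.74, SE 0.45) and Myh10 (1.11, SE 0.32). Over all genes 6.98% were higher in tumour, and no list was tested as a set. With the mouse as a replicate block 0 of all genes passed, so each of these list calls was lost. That fit rested on mice M00236 and M00248, the only ones with both a liver and a liver tumour. A call lost there does not show that a difference is absent.

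The intestine tumour was represented by 2 libraries of 1 mouse, so its levels carry no test and its intervals (exact binomial, 95%) cover counting error only. Acta2 stood at 12.3 CPM (9.89 to 15.0) and 7.53 CPM (5.8 to 9.62), Tagln at 8.67 and 5.77 CPM, and Myh11 at 5.47 CPM (3.92 to 7.42) and 13.3 CPM (11 to 16.0). Acta2 and Myh11 thus ranked the 2 libraries in opposite order, with intervals that did not overlap for either gene. Cnn1 had 1 count in the first library and 0 in the second, where a count of 0 allows up to 0.353 CPM by the rule of 3 counts and 0.434 CPM by the exact interval. Actg2, the actin of the gut muscle coat, had 6 and 3 counts (0.8 and 0.353 CPM), and Lmod1 2 and 9 counts (0.267 and 1.06 CPM).

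Synpo2 stood at 11.3 CPM (9.05 to 14.0) and 31.4 CPM (27.8 to 35.4), and Smtn at 2.0 and 5.41 CPM. The intestinal epithelial genes were near absent in the same libraries: Cdx1, Cdx2 and Muc2 were at 0 in both, and the 8 genes summed to 14.4 and 9.18 CPM, of which Epcam gave 7.77 to 13.1 CPM. The 8 macrophage genes summed to 3305 and 3914 CPM, the 8 pericyte genes to 39.9 and 188 CPM, and the 8 endothelial genes to 89.5 and 189 CPM. Where this tissue lies in the gut wall is not given in the labels used here, and the part of these cell types in the levels was not tested.

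The genes whose pattern was most like the mean of the 8 genes, by Pearson r on log2(CPM + 1), were named over all genes with a mean of at least 5 CPM. Over the 18 MEF libraries and 9239 genes they were Col7a1 (0.897), Hspb1 (0.888), Fam174b (0.887), Picalm (0.874), Ankrd10 (0.861) and Gng11 (0.858). Over the 42 tissue libraries and 11831 genes they were Ly6c1 (0.922), Kitl (0.886), Bcam (0.886), Meis1 (0.883), Limch1 (0.881) and Myl9 (0.881), the last a regulatory light chain of smooth muscle myosin. No gene was on both lists.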

How the data were processed

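The deposited values were estimated counts per gene (some fractional: 6.6% of MEF and 8.35% of tissue values), per the file contents; libraries were 3′ QuantSeq libraries sequenced on a HiSeq4000, per the labels' protocols. The aligner, counter and genome build were not given in the sources used here. Expected counts were rounded, which moved totals by at most 0.0007%; the test plan had assumed whole counts. CPM was computed from the deposited counts. Genes passing filterByExpr (minimum count 10) were tested with edgeR 4.0.16 in R 4.3.3 (TMM scaling, quasi-likelihood test, two-sided, Benjamini-Hochberg, threshold 0.05); DESeq2 1.42.0 was an alternative. Samples were grouped by title and characteristics. The MEF fit held all 18 libraries; each tissue comparison held its own 2 groups. The same embryo gave both passages, and deviations from group means correlated between passages at 0.1 to 0.41 in all 9 embryos. No replicate pair matched within sampling noise (chi-square per degree of freedom at least 2.86). All 8 genes were named in every group; of each other list, up to 4 genes past the threshold with the smallest adjusted p, or the nearest 1, were named. The genes and lists were chosen with earlier results of these data known. For embryo 8 the titles give passages 2 and 1 where the group labels give 1 and 3, and a column header gives passage 5; the group labels were followed. The fits were tested on simulated counts with known changes. Some genes of the lists that the naming rule selected are not reported here.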

Additional observations from a re-analysis of the deposited data

Results flagged for a closer look

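Each of the 8 genes was checked in each tissue group of 4 to 10 samples for a sample far from the rest by Dixon's 95% critical value. Of these 40 pairs of gene and group 6 held one, 4 of them in 1 library. Chance gives about 1 in 20 for independent values with a normal spread. The check used plain CPM of genes that correlate across libraries, so that rate need not hold here. The liver of mouse M00236 stood apart in 4 genes: Acta2 at 12.2 CPM (next 5.27), Myh11 at 8.33 CPM (next 2.37), Synpo2 at 2.25 CPM (next 0.801) and Cnn1 at 1.35 CPM (next 0.458). That library had a fibroblast sum of 477 CPM, against at most 488 CPM in the other livers, and a pericyte sum of 112 CPM, against 41.3 to 99.2 CPM; their part was not tested. The lung of mouse M00246 had 12.5 CPM of Actg2 (next 6.53), and the sarcoma of mouse M00238 had 30.8 CPM of Synpo2 (next 12.3).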

How the results depend on the processing

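Over all alternatives the 8 genes kept their side of the threshold in 1715 gene and setting pairs (and their direction where called), lost the call in 43, gained it in 13 and reversed in 2. Each genotype comparison gave 133 to 135 of the 1715, where no gene had been called. The total is therefore not a measure of how stable the called differences were. For passage, 15 pairs lost the call and 120 kept their side. Both reversals were Lmod1 in sarcoma against muscle, at 0.01 with the library total alone and 0.01 within the 2-digit names, both chosen after seeing the data. Myh10 in liver tumour was at -0.14 within the 2-digit names, where the only tumour was that of mouse M00236. Counts of the 8 genes moved as follows. For passage the count was 1 with the embryo as a replicate block, 0 without embryos 1 and 3 and 1 without embryos 2, 3 and 10, and 0 to 2 with embryos left out in turn. For sarcoma against muscle it was 3 with name form as a covariate and 2 within the 2-digit names. It was 3 within the 2-digit names for sarcoma against lung, and 7 with the library total for lung against muscle. For liver tumour it was 1 in 1 fit of 6 tissues and tumours, 1 with DESeq2 and 1 with the library total, and 0 to 1 with replicates left out. Leaving out embryos gave 0 to 2 of the 8 genes for homozygous against negative at passage 1. Over all genes, passage gave 340 in the reported fit, 581 with DESeq2, 515 with no filter, 4 without embryos 1 and 3, and 30 to 779 with embryos left out. Homozygous against negative at passage 1 gave 9 with DESeq2, 30 with no filter, 2 without embryos 1 and 3, and 0 to 891 with embryos left out; at passage 3 it gave 1 without embryos 1 and 3. Heterozygous against negative gave 3 at passage 1 and 1 at passage 3 without embryos 1 and 3, 1 at passage 3 with DESeq2, and 0 to 1 with embryos left out. Homozygous against heterozygous gave 1 with DESeq2 at each passage and 0 to 147 with embryos left out, and the difference of passage changes gave 1 without embryos 1 and 3 and 0 to 1 with embryos left out. Liver tumour against liver gave 1407 in the reported fit, 2380 in 1 fit of 6 tissues, 0 with the mouse as a replicate block, 164 within the 1-digit and 2289 within the 2-digit names, and 860 to 1919 with replicates left out. Sarcoma against lung gave 6520, 4030 with the mouse block and 3006 within the 2-digit names, and lung against muscle 8769 and 3362 within the 2-digit names. Sharing an embryo or mouse is the pairing; beside the calls named in the text, the block changed no other call of the 8 genes. The cause of these changes was not tested. At 3 embryos a group, precision is limited, and in tissues Actg2 outside lung lies near the floor of 3 counts.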

Other observations

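Spleen and brain, in no comparison above, held the 8 genes at intermediate levels. In spleen, Synpo2 stood at 11.7, 21.2 and 37.8 CPM (lowest, median, highest), Cnn1 at 1.42, 2.21 and 4.54 CPM, and Smtn at 6.1, 9.65 and 18 CPM. In the 2 brains, Synpo2 differed most, at 8.07 and 47.8 CPM, whereas Lmod1 stood at 5.45 and 8.32 CPM and Cnn1 at 3.29 and 3.71 CPM. The kidney held Smtn at 30.2 CPM (exact 95% binomial interval 26.3 to 34.5), and Actg2 at 0 counts, which allows up to 0.413 CPM by the rule of 3 counts and 0.508 CPM by the exact interval.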
